A study of Mus musculus with 10 samples.

Results

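The genes described here are 7 members of the neural basic helix-loop-helix (bHLH) family, Neurog2, Atoh7, Olig2, Olig1, Neurod4, Neurod2 and Neurod6, out of 21631 protein-coding genes on chromosomes 1 to 19 and X. They were chosen by name, and each was followed over a window of its gene body with 20 kb either side, in mm10 coordinates. Of the 10 mouse retina samples (strain C57BL/6), 8 had a list of called peaks, and 2 samples of input chromatin were left aside. Open chromatin was mapped by ATAC-seq, which reads where a transposase can enter DNA, with 2 libraries each of control and of Casz1 conditional knockout (cKO) cells. These came from retina of postnatal day 2 that was kept as explants for 2 days, and each library held 50000 sorted, viable, GFP-positive cells. Control explants, given as wild type, had received a plasmid for GFP alone, and cKO explants a plasmid for GFP with Cre. H3K27ac, a histone mark of active promoters and enhancers, and H3K27me3, the mark written by Polycomb repressive complex, were mapped by ChIP-seq in dissected retina of postnatal day 0. Here there was 1 control (wild type) and 1 cKO library per mark, and the cKO tissue was peripheral retina picked by its fluorescence. The sources used here name neither the Cre driver of that tissue nor the floxed part of Casz1, so the peak lists do not check the genotype. Whether libraries of a group came from separate animals is likewise not stated, and a spread between them may be technical.

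Proneural bHLH factors pair with E proteins, bind E-box sequences in DNA, and push dividing progenitors to leave the cell cycle and become neurons. In the retina they act in order. Neurog2 is active in cycling progenitors, Atoh7 gives progenitors the competence to make ganglion cells, and Olig2 marks progenitors near their last division. Neurod4, Neurod2 and Neurod6 act later, in differentiating bipolar and amacrine cells, while Olig1 is best known from oligodendrocyte precursors, a cell type that the mouse retina does not normally form. Casz1 encodes a zinc finger transcription factor of retinal progenitors, and the series concerns its work with a chromatin remodelling complex.

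In newborn retina the 7 genes lay in very different chromatin. Neurod4 carried broad H3K27ac and no H3K27me3 peak in either genotype. Neurog2, Atoh7, Olig2 and Neurod2 had both marks in their windows and bases covered by both. Of these, Atoh7, Olig2 and Neurod2 each lay inside a single H3K27me3 peak in both genotypes. Olig1 lay inside such a peak as well and had no H3K27ac. Neurod6 had H3K27ac on 4.49% of its window in control, above the median of all genes (2.98%), and H3K27me3 on 0.826%. The marks within 1 kb of the gene ends were the same in control and cKO at all 7 genes. No ATAC region in the 7 windows separated the genotypes. A mark was counted as past the fold threshold where the larger covered length was at least 25% above the smaller and their mean was at least 1000 bp. By this rule there were 2 differences, both of H3K27ac and lower in the cKO library, from 8631 to 6682 bp at Neurog2 and from 2357 to 1724 bp at Neurod2. Among all genes 10.3% of 14855 were lower in H3K27ac by as much, and 66.7% were lower by any amount. The ratio at Neurog2 no longer passed the threshold after scaling by the list totals (0.831) or after joining peaks up to 1000 bp apart (0.909). That at Neurod2 no longer passed it with 50 kb either side (0.871).

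The order of the genes by H3K27me3 was the same in both genotypes. In control the mark covered 95.3% of the window at Neurod2, 84.5% at Olig2, 65.4% at Olig1, 33.3% at Atoh7, 32.5% at Neurog2, 0.826% at Neurod6 and 0% at Neurod4, beside a median of 1.23% over all genes. Atoh7 and Neurog2 were closer to each other in control than control was to cKO within either gene. By H3K27ac the order in control was Neurod4 (22.5%), Neurog2 (20.1%), Atoh7 (9.28%), Olig2 (8.83%), Neurod2 (5.33%), Neurod6 (4.49%) and Olig1 (0%), beside a median of 2.98%. In cKO Neurod6 (4.99%) stood above Neurod2 (3.9%), and the rest of the order was the same.

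**Figure D1:**
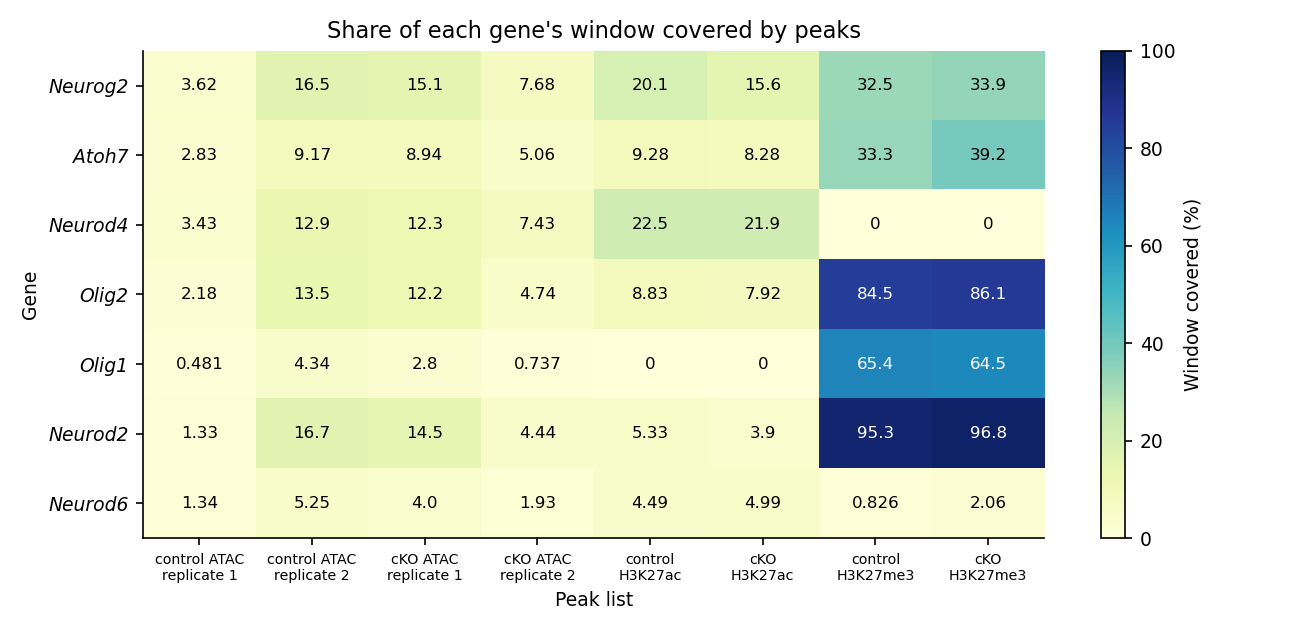
Percent of each gene's window (rows; gene body and 20 kb either side) covered by called peaks in each of the 8 lists (columns), printed in each cell and shown by colour. H3K27me3 covered from 0% at Neurod4 to 96.8% at Neurod2. H3K27ac at Neurog2 was 20.1% in control and 15.6% in cKO, and H3K27me3 at Atoh7 33.3% and 39.2%.

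The stretches of 250 bases before the annotated start sites of Neurog2, Atoh7, Neurod4 and Neurod2 are shown because these promoters stood in the contrasting chromatin states. They are RefSeq sequences (GRCm38.p6, the assembly called mm10), written 5′ to 3′ on the gene's strand, with each E-box (CANNTG, the same on both strands) in capitals. Their positions are chr3:127632886-127633135 on the plus strand for Neurog2, chr10:63099535-63099784 on the plus strand for Atoh7, chr10:130280255-130280504 on the minus strand for Neurod4 and chr11:98329646-98329895 on the minus strand for Neurod2.
Neurog2: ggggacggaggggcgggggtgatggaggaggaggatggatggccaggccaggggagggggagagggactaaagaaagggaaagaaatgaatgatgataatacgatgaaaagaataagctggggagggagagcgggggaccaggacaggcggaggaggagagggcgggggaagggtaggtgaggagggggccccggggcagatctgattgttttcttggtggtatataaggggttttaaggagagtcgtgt
Atoh7: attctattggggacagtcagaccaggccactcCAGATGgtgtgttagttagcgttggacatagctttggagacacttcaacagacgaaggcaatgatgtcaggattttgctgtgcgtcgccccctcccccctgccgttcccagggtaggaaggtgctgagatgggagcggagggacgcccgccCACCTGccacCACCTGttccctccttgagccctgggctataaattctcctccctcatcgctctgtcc
Neurod4: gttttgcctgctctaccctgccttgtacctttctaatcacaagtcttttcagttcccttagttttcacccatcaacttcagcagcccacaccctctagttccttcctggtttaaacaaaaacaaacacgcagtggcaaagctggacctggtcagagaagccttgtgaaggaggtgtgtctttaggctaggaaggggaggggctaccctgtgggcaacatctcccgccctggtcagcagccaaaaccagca
Neurod2: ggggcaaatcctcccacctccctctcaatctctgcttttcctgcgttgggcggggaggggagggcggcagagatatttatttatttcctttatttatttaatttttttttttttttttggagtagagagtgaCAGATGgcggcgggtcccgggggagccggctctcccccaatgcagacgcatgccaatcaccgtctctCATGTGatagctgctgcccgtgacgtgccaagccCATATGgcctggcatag

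The promoters of Atoh7 and Neurod2 each held 3 E-boxes. Those of Atoh7 began 218, 67 and 57 bases before the start site, the latter pair both reading CACCTG, and those of Neurod2 began 118, 51 and 17 bases before it. Neurod6 had 2 E-boxes in the same stretch, and Neurog2, Neurod4 and Olig2 had 0. Among 32817 promoters of this length, 66.2% held at least 1 E-box and 12.2% held at least 3, so that the counts at Atoh7 and Neurod2 were not rare. A match describes the letters only. The stretch of Neurog2 lies within its gene span, as does its annotated start site. Neurod4 has 2 entries in the promoter table, of which the first was used, and Olig1 has no entry.

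Positions are given below in kb from a gene's start site along its strand, negative before it. Open regions of sorted explant cells are set beside marks of dissected newborn retina. An overlap of the 2 therefore does not place them in the same cells or at the same age. Neurog2 (chr3:127632733-127635636) opened at 8 places within its window, from -7.3 to 19.2 kb, and 6 of them were called in all 4 ATAC lists. ATAC peaks covered 1555 bp of the window in control replicate 1, 7099 bp in control replicate 2, 6472 bp in cKO replicate 1 and 3295 bp in cKO replicate 2. The cKO values lay between the control values. H3K27me3 lay over the promoter and on both sides of the gene. Besides its upstream part, a peak ran from 2.18 to 5.43 kb in control and from 1.8 to 5.5 kb in cKO. H3K27ac lay over the promoter and at places 6.39 to 19.9 kb downstream. Both marks covered parts of the gene itself. There H3K27ac covered 2109 bp in control and 1960 bp in cKO, and H3K27me3 1705 and 2148 bp. Both marks were called on the same 2773 bp in control and 2425 bp in cKO. The annotated start site (chr3:127633136), which lies within the gene span, was inside peaks of both marks in both genotypes. It was inside ATAC peaks in control replicate 2 and cKO replicate 1, and in neither of the other lists. The lower-coordinate end of the gene span was inside an ATAC peak in all 4 lists. That end was outside H3K27me3 peaks in control and outside H3K27ac peaks in cKO.

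H3K27ac at Neurog2 covered 8631 bp in 6 control peaks and 6682 bp in 11 cKO peaks, 1.29-fold fewer bases. At all 4 places that carried the mark in both libraries, counting peaks up to 500 bp apart as 1 place, the cKO library had fewer covered bases. Around the start site (-1.15 to 1.71 kb) they were 2858 and 2389 bp. At 6.39 to 10.4 kb they were 3803 and 2696 bp, and at 18.7 to 19.9 kb 962 and 526 bp. At 12.9 to 14.2 kb they were 1008 and 927 bp. A further place at -7.42 kb, 144 bp wide, was called in cKO alone. The cKO peaks at Neurog2 were more numerous and the widest was shorter (1960 bp, against 2858 bp in control). The whole H3K27ac list differed in the same way, with a median peak width of 400 bp in control and 325 bp in cKO and with 71605 and 77357 peaks, and its part in the difference at Neurog2 was not tested. The ratio of 0.774 became 0.909 when peaks up to 1000 bp apart were joined. With each value divided by the total of its list it was 0.831, so that neither of these passed the threshold.

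H3K27me3 at Neurog2 covered 13940 bp in control and 14535 bp in cKO, a ratio of 1.04. The widest peak was 7246 bp in control, beside a separate peak of 1238 bp that held the start site. In cKO a single peak of 8758 bp ran across both places. Of 12937 genes with the mark in both libraries, 19.5% had a higher cKO to control ratio of the widest peak than Neurog2.

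Atoh7 (chr10:63099785-63101280) opened near its start site (middle at 0.453 kb) and at -9.88, -1.42 and 13.5 kb, 4 places in all. The start site itself was inside a peak in control replicate 2 and cKO replicate 1 only. A regulatory element upstream of Atoh7, away from its promoter, is known from work in mouse and human. ATAC peaks covered 1176 bp in control replicate 1, 3806 bp in control replicate 2, 3709 bp in cKO replicate 1 and 2100 bp in cKO replicate 2, again with the cKO values between the control values. The upstream region (chr10:63089048-63090760) was called in all 4 lists. It carried H3K27ac on 1567 bp in control and 1564 bp in cKO, and H3K27me3 on 739 and 736 bp. The last region, at 13.5 kb, had neither mark.

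At Atoh7, H3K27ac covered 3852 bp in control and 3435 bp in cKO, a ratio of 0.892. The difference lay mainly between -1.96 and -0.965 kb, with 831 bp in control and 483 bp in cKO. Over the promoter the values were 1206 and 1214 bp. H3K27me3 covered 13804 bp in control and 16258 bp in cKO, a ratio of 1.18 that 89.9% of 10782 genes did not reach. Most of the difference lay far upstream of the promoter. Between -16.5 and -14.1 kb the covered length was 594 bp in control and 1845 bp in cKO, and between -13.4 and -11.5 kb 711 and 1590 bp. The main domain of 12174 bp in 2 control peaks was a single peak of 12556 bp in cKO. With peaks up to 1000 bp apart joined the ratio was 1.32, past the threshold.

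**Figure D2:**
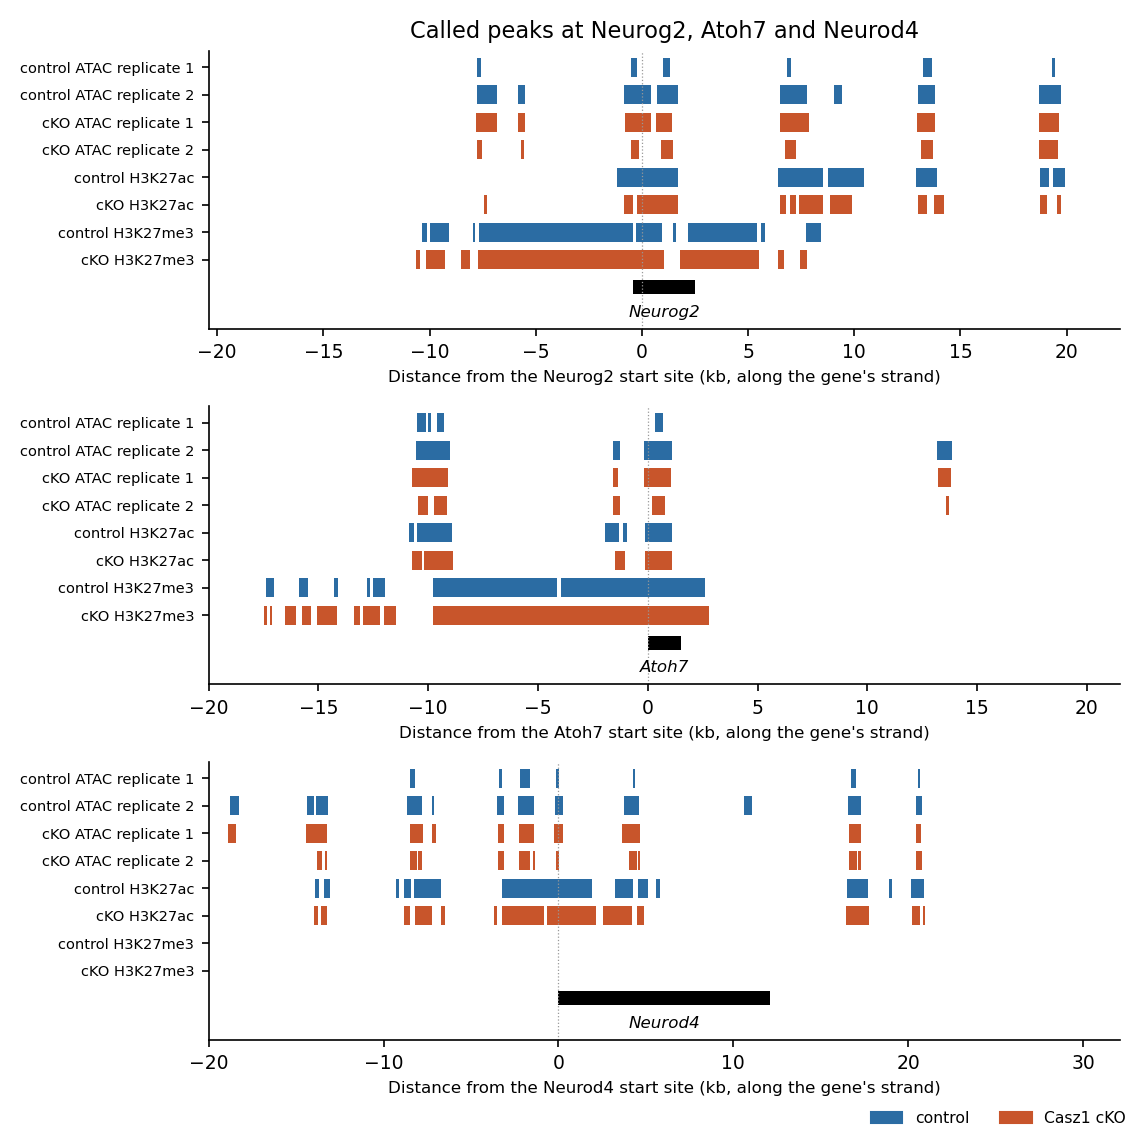
Called peaks (bars; control in blue, cKO in orange) in each of the 8 lists across the windows of Neurog2, Atoh7 and Neurod4, by distance in kb from the start site along the gene's strand; black bars are the genes. Neurod4 has no H3K27me3 peak, and at Atoh7 the 2 widest control H3K27me3 peaks correspond to 1 cKO peak of 12556 bp.

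Neurod4 (chr10:130268152-130280254), a factor of bipolar and amacrine cell development, had the widest acetylation of the 7 windows. H3K27ac covered 11745 bp in control and 11394 bp in cKO, a ratio of 0.97, and 2.29% of all genes had a larger share of their window covered in control. The widest control peak, of 5172 bp, spanned the start site, and the widest cKO peak was 2806 bp. From -3.66 to 5.78 kb H3K27ac covered 6935 bp in control and 7389 bp in cKO. Between -9.28 and -6.51 kb the values were 2096 and 1561 bp. No base of the window was in an H3K27me3 peak of either library, as at 7315 of the 21631 genes.

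Of 11 open regions in the Neurod4 window 7 were called in all 4 lists, and 9 carried H3K27ac in both genotypes. Neurod4, by its first promoter entry, was the only gene of the 6 with an entry whose start site was inside an ATAC peak in all 4 lists. At Neurog2 the lower-coordinate end of the gene span, though not the start site, was also inside a peak in all 4. ATAC peaks covered 1787 bp in control replicate 1, 6730 bp in control replicate 2, 6427 bp in cKO replicate 1 and 3871 bp in cKO replicate 2.

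Olig2 (chr16:91225550-91228677) and Olig1 (chr16:91269769-91271939) are neighbours 41.1 kb apart, and their windows lie 1091 bp apart. H3K27me3 covered 74.4% of the 86.4 kb from the start of the first window to the end of the second in control, and 74.6% in cKO. At Olig2 the mark covered 36452 bp (84.5% of the window) in control and 37122 bp (86.1%) in cKO, with the gene inside a single peak of 25388 bp and 25022 bp. At Olig1 it covered 27567 bp and 27191 bp, with 2171 of 2171 bp of the gene covered in both libraries. The control and cKO peaks shared 0.949 of the bases that either covered at Olig2, and 0.863 at Olig1.

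Acetylation divided the neighbours. Olig2 had 3809 bp of H3K27ac in control and 3417 bp in cKO, a ratio of 0.897, and 94.3% and 100% of these bases were in H3K27me3 peaks as well. Most lay from -3.62 to 0.621 kb, with 3012 bp in control and 2641 bp in cKO, and the rest mainly at 6.8 to 7.58 kb, with 578 and 608 bp. Olig1 had no H3K27ac peak in its window in either genotype. It still had an open region at its lower-coordinate end (chr16:91269366-91270586) that was called in all 4 ATAC lists, within H3K27me3.

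ATAC peaks at Olig2 covered 939 bp in control replicate 1, 5819 bp in control replicate 2, 5245 bp in cKO replicate 1 and 2043 bp in cKO replicate 2. At Olig1 the values were 203, 1831, 1181 and 311 bp in the same order. At both genes the cKO values lay within the range of the control values. The other 3 regions at Olig1 were called in control replicate 2 alone.

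Neurod2 (chr11:98325415-98329645) had the most H3K27me3 of the 7 windows. The mark covered 42151 bp (95.3%) in control and 42806 bp (96.8%) in cKO, and 0.356% of all genes had a larger covered share in control. The widest peak was 33473 bp in control and 40449 bp in cKO, where it joined several control peaks. H3K27ac covered 2357 bp in control and 1724 bp in cKO, 1.37-fold fewer, and every acetylated base lay in an H3K27me3 peak. None of it touched the gene. The main peak lay between -10.6 and -8.64 kb, in the annotated gene Gm33099, with 1985 bp in control and 1508 bp in cKO. A 204 bp peak at -4.87 kb was called in control alone. With 50 kb either side, which takes in other genes, the ratio was 0.871 and no longer past the threshold.

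Open chromatin at Neurod2 differed most between libraries of the same genotype. ATAC peaks covered 590 bp in control replicate 1 and 7404 bp in control replicate 2, against 6402 bp in cKO replicate 1 and 1965 bp in cKO replicate 2. Of 15 regions 2 were called in all 4 lists and 5 in all lists but control replicate 1. H3K27me3 peaks of both genotypes overlapped 15 of the 15, and 2 of these also carried H3K27ac.

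Neurod6 (chr6:55677818-55681263), known from amacrine cells that use neither GABA nor glycine, had the fewest bases in peaks of the 2 marks added together. H3K27ac covered 1952 bp in control and 2169 bp in cKO, a ratio of 1.11, at 2 places between 3.79 and 14.5 kb, outside the gene body. The nearer place had 1102 and 961 bp and the farther 850 and 1208 bp. H3K27me3 covered 359 bp in 2 control peaks and 897 bp in 5 cKO peaks, under the mean of 1000 bp required for a call. Between -1.13 and 0.096 kb it was 167 bp in control and 517 bp in cKO. ATAC peaks covered 583 bp in control replicate 1, 2280 bp in control replicate 2, 1739 bp in cKO replicate 1 and 838 bp in cKO replicate 2. A single region, at 4.45 kb and acetylated in both genotypes, was called in all 4 lists.

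**Figure D3:**
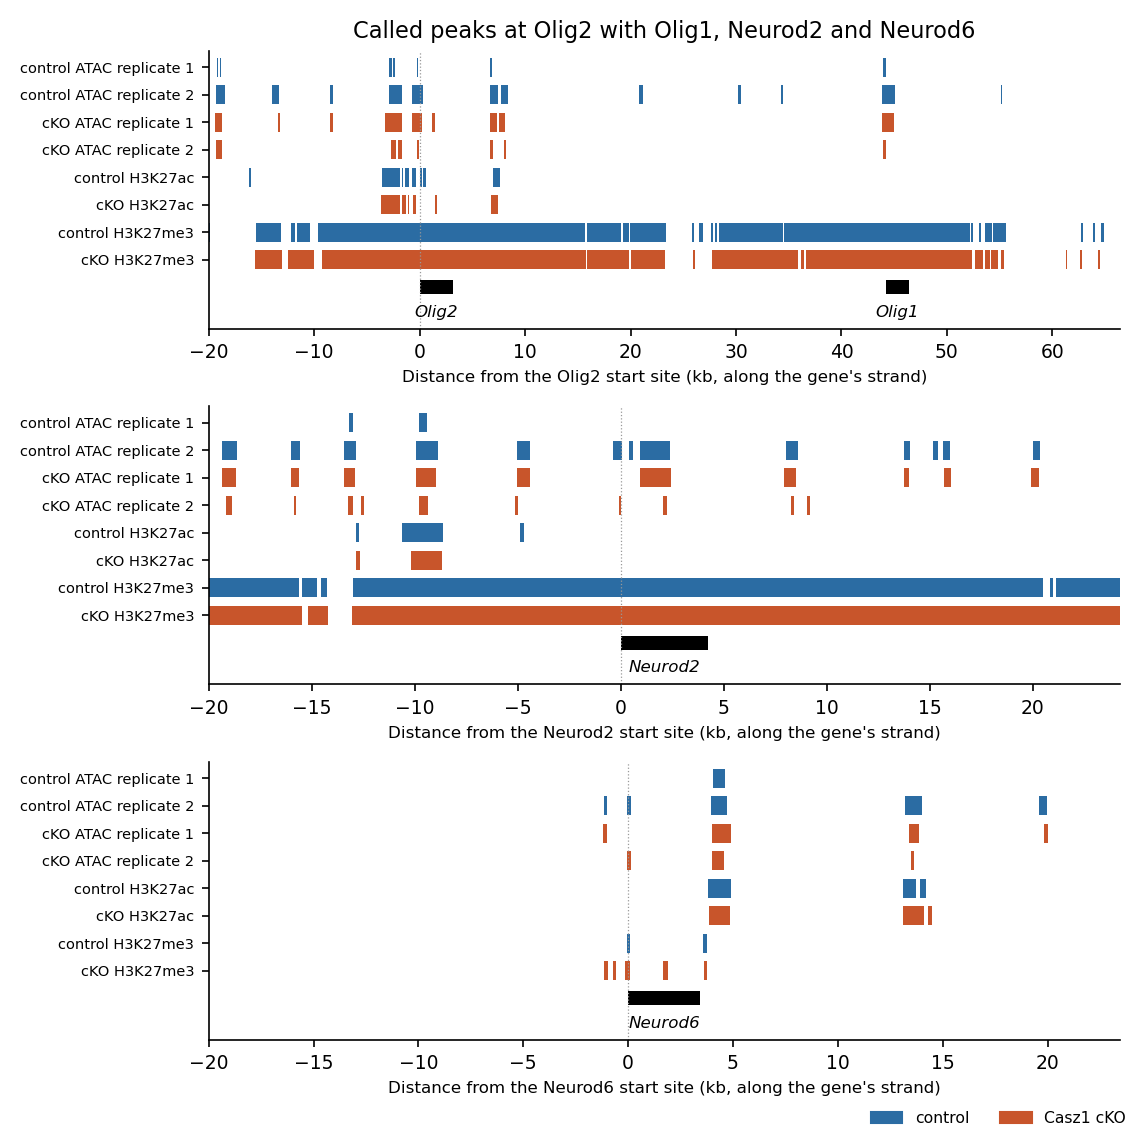
Called peaks (bars; control in blue, cKO in orange) in the 8 lists across the joined windows of Olig2 and Olig1 and the windows of Neurod2 and Neurod6, by distance in kb from the start site of the first gene named; black bars are the genes. H3K27me3 fills 74.4% of the Olig interval in control and 74.6% in cKO, and H3K27ac appears around Olig2 but not around Olig1.

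H3K27ac and H3K27me3 were called on the same bases at 4 of the 7 genes, namely Neurog2, Atoh7, Olig2 and Neurod2, in control and in cKO. Such bases occurred in 28.3% of all gene windows in control and 27.9% in cKO. In control they made up 32.1% of the acetylated bases at Neurog2, 74.6% at Atoh7, 94.3% at Olig2 and 100% at Neurod2. At Neurod4 and Neurod6 the share was 0%. H3K27me3 filled 84.5% of the Olig2 window and 95.3% of the Neurod2 window, so that almost any acetylated base there would lie within it. Over the whole lists 7.01% of acetylated bases in control were also in an H3K27me3 peak. The tissue is a mixture of cell types, so that both marks in the same cells and each mark in different cells cannot be told apart. In the same way, fewer cells with a mark and less of the mark per cell cannot be told apart.

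The first comparison between genotypes asked whether open chromatin at these genes separated control from cKO. Across the 7 windows there were 56 merged regions, and 23 of them (41.1%) appeared in every ATAC list, beside 28.2% of 118718 regions over the whole lists. A region counted as called in 1 genotype when it was in both libraries of that genotype and in neither of the other. None of the 7 genes had such a region in its window (0 cKO-only and 0 control-only of 56), where 1.39% of all genes had a cKO-only and 0.901% a control-only region. With these shares, a count of 0 among 7 genes does not set them apart.

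Covered bases differed more between libraries of the same genotype than between the genotype means. At all 7 genes cKO replicate 2 covered more bases than control replicate 1, from 1.44 times at Neurod6 to 3.33 times at Neurod2. At all 7 genes cKO replicate 1 covered fewer than control replicate 2, from 0.645 times at Olig1 to 0.975 times at Atoh7. The same turn was seen at 76.0% of the 18840 genes with any ATAC peak, and the totals of the lists differed likewise, by 1.69 and 0.863 times. Control replicate 2 and cKO replicate 1, the longest lists, shared 9 of the 56 regions with neither of the other lists. Control replicate 1 and cKO replicate 2 shared 0 in this way. Over the whole lists these pairs shared 33255 and 204 of 118718 regions, so that the pattern was not particular to the 7 genes. The covered bases of the genotypes overlapped at all 7 genes, and they failed to overlap at 0.186% of the genes with a peak. A two-sided exact permutation test of the covered bases over the 4 libraries gave p = 1 at each gene (n = 2 per genotype), in a design where the smallest possible p is 0.333.

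**Figure D4:**
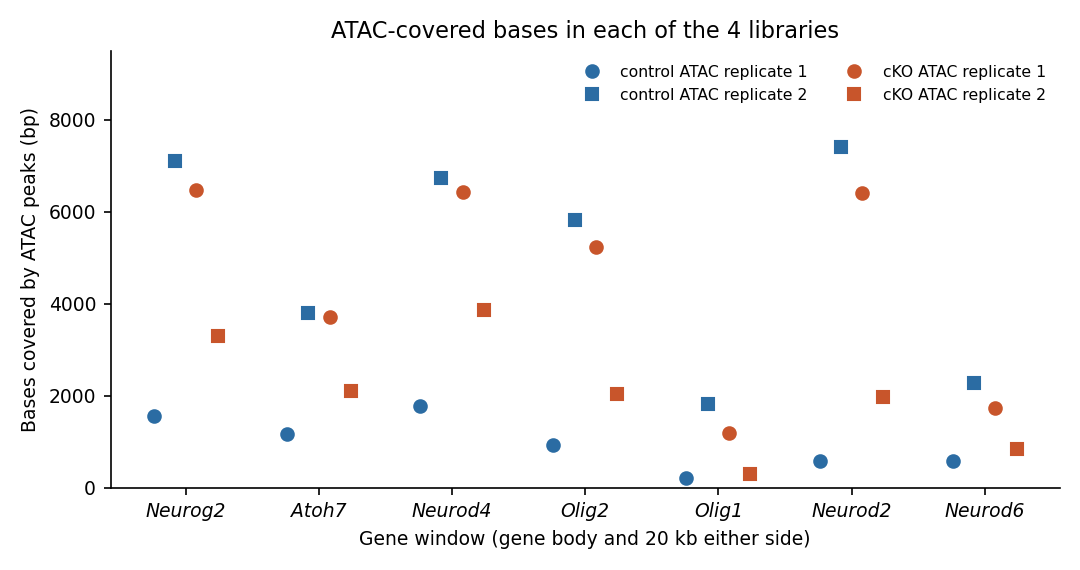
Bases covered by ATAC peaks in the window of each gene, 1 point per library (control in blue, cKO in orange; circles are replicate 1 and squares replicate 2). At each gene control replicate 2 is highest and control replicate 1 lowest, with both cKO libraries between them.

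Start sites did not separate the genotypes either. Those of Neurog2, Atoh7 and Olig2 were inside an ATAC peak in control replicate 2 and cKO replicate 1. Those of Neurod2 and Neurod6 were inside one in control replicate 2 and cKO replicate 2. At Neurog2 and Olig2 the shorter lists had a peak that reached into the promoter, with 1 and 117 of 300 bp covered at Neurog2 and 111 and 195 bp at Olig2 in control replicate 1 and cKO replicate 2, from 250 bases before the start to 50 after.

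The second comparison asked where H3K27ac differed. Of the 6 genes with a mean of at least 1000 bp, 5 had fewer covered bases in cKO and 1, Neurod6, had more. Past the threshold were 2 of 6, both lower, Neurog2 (ratio 0.774) and Neurod2 (0.731). The same held for 10.3% of 14855 genes, and 3.32% were higher by as much. The median ratio was 0.894 over the 6 genes and 0.954 over all genes, of which 66.7% were lower. Ratios below that of Neurog2 were found at 7.43% of genes, and below that of Neurod2 at 4.52%. The cKO list as a whole covered 51.6 Mb and the control list 55.4 Mb.

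The third comparison asked where H3K27me3 differed. Among the 5 genes with a mean of at least 1000 bp, 4 had more covered bases in cKO and 1, Olig1, had fewer, with a median ratio of 1.02 beside 0.984 over 10782 genes. None of the 5 passed the threshold in either direction, where 6.78% of all genes were higher and 11.7% lower by as much. Atoh7 (1.18) came nearest, and the ratios of Neurog2, Olig2, Neurod2 and Olig1 lay between 0.986 and 1.04. With 1 library per genotype neither mark has a replicate check, and none of these differences is tested.

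**Figure D5:**
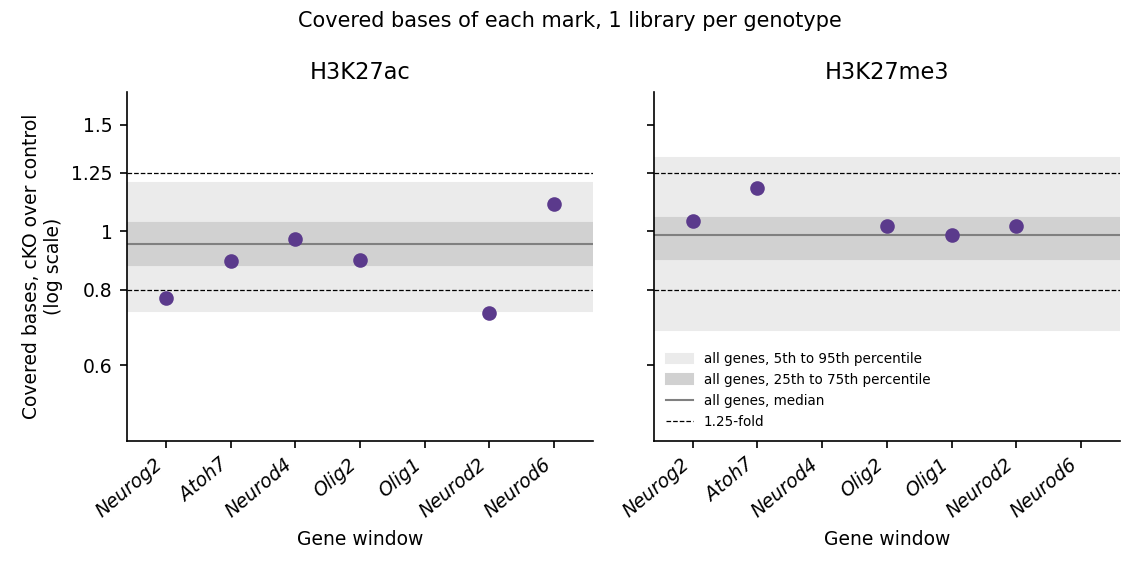
Covered bases in cKO over control (log axis) for H3K27ac and H3K27me3 at each gene with a mean of at least 1000 bp (points), with the median and the 25th to 75th and 5th to 95th percentiles of all genes (line and grey bands) and the threshold bounds (dashed). Neurog2 (0.774) and Neurod2 (0.731) lie below the lower bound for H3K27ac, and no point lies outside the bounds for H3K27me3.

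Other genes of the bHLH network, 26 in all, took in further neural bHLH factors, their E protein partners and the Id, Hes and Hey antagonists. Of the 19 with a mean of at least 1000 bp of H3K27ac, 17 were lower and 2 higher in cKO, with a median ratio of 0.903, and 3 were lower past the threshold, beside the 10.3% of all genes. These were Atoh8 (19346 to 13827 bp), Ptf1a, which drives amacrine and horizontal cell fates (3164 to 1969 bp), and Bhlhe22, a factor of amacrine and bipolar subtypes (5174 to 3709 bp). Of 21 with enough H3K27me3, 12 were higher and 9 lower, and past the threshold were 1 in each direction. Hes5, a Notch effector that represses proneural genes, was the lower one (1763 to 727 bp). No ATAC region of either genotype alone lay in the 26 windows. Among all genes 1.39% had a cKO-only and 0.901% a control-only region, so that this absence does not set the 26 apart. Of the 26 genes 5 had no H3K27ac peak in either genotype, as had 4482 of all 21631 genes. Among these 5 were the related factors Neurog1, Neurog3 and Atoh1. These 3 had from 16274 bp to 37781 bp of H3K27me3 in control, the pattern seen at Olig1 (27567 bp).

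The labelled tissue was checked by H3K27ac within 1 kb of an end of marker genes. All 10 retinal genes, among them Rax, Pax6, Otx2 and Crx, were marked in both libraries, with a summed 171359 bp in control and 159960 bp in cKO over their windows. Of other cell types, 3 of 6 oligodendrocyte lineage genes were marked in each library (22142 and 20382 bp), 2 and 3 of 6 forebrain genes (8915 and 6610 bp) and 2 of 5 vessel genes in each (31823 and 24607 bp). For microglia 1 and 0 of 5 genes were marked (13173 and 12149 bp), for pigment epithelium 1 of 5 in each (5041 and 4063 bp), and for liver and muscle 2 and 1 of 5 (4712 and 3491 bp). Pdgfra, Cspg4 and Mog of the oligodendrocyte list were unmarked. Every list had fewer acetylated bases in cKO, and its part in the values at Neurog2 and Neurod2 was not tested.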

How the data were processed

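The authors deposited 8 peak lists with chromosome, start, end and name; the deposited score column is 0 throughout, so peak height and read depth are unknown, and so is the precision of any one peak. The submitters' processing notes name Bowtie2, deepTools, MACS2 and mm10, with no version or setting. Each list was taken as called per library, from the peak names. The lists held 40435 to 110741 peaks (ATAC), 71605 and 77357 (H3K27ac, control and cKO) and 92652 and 89523 (H3K27me3) on chromosomes 1 to 19 and X. A longer list may come from deeper sequencing, and calling can break broad domains into pieces, which is why covered bases were used beside presence.

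Gene positions and promoters came from RefSeq tables of GRCm38.p6. Exons were not assigned. ATAC lists were merged into regions (1 bp minimum overlap). For the histone marks a gene was called as past the threshold where the larger covered length was at least 25% above the smaller, with a mean of at least 1000 bp. All protein-coding genes were treated alike as background. Scripts used Python 3.11.15 and NumPy 2.4.6 and were tested on simulated lists. The members and lists were chosen with earlier results of these data known. Every member is named, other bHLH genes only past the threshold or as relatives without acetylation (Neurog1, Neurog3 and Atoh1, picked after their values were seen), and some results are not reported here. Per the labels, the ATAC experiments were done on different days, but the day of each library is not stated, so day and library cannot be told apart. Alternatives changed the window, the peaks used, list length, scaling, joining of peaks and the threshold, left out each ATAC library or blocked on replicate number. A stricter threshold of the caller, planned as an alternative, was not run for want of its values.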

Additional observations from a re-analysis of the deposited data

How the results depend on the processing

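The count of ATAC regions called in 1 genotype stayed at 0 with 5 kb windows, peaks of at least 200 bp, lists of equal length and peaks up to 500 bp apart merged. It was 1 with 50 kb either side, and from 1 to 11 when 1 library was left out: 8 control-only without control replicate 1, 11 cKO-only without control replicate 2, 2 cKO-only without cKO replicate 1 and 1 without cKO replicate 2. Same-numbered ATAC libraries had deviations from their group means that correlated at -0.274 over 118718 regions, so the numbers were not taken as pairs. With these numbers as a replicate block the count was 0 and the median cKO minus control difference in ATAC-covered bases 265 bp. Crossed pairs, chosen after the data were seen, gave the same values. In this balanced design neither block can change the count or the difference, so the blocks are no check on them.

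The median difference ranged from -1581 to 2705 bp without 1 library. Per gene the range was -2216 to 3328 bp at Neurog2, -901.5 to 1728 at Atoh7, -1581 to 3362 at Neurod4, -2175 to 2705 at Olig2, -1085 to 543 at Olig1, -3220 to 3594 at Neurod2 and -991.5 to 705.5 at Neurod6, so that 1 library sets the sign at all 7. The sign also turned with 5 kb windows at Olig1 (39.5 bp), Neurod2 (-1.5) and Neurod6 (83.5), with 50 kb windows at Olig2 (-140), Olig1 (443) and Neurod6 (65.5), with peaks of at least 200 bp at Neurod2 (-129) and at equal list length at Olig1 (39.5).

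Genes past the fold for H3K27ac were 2. They became 1, Neurog2, with 5 kb or 50 kb windows. After scaling by the list total or after joining peaks up to 1000 bp apart they also became 1, Neurod2. They were 5 at 1.1-fold and 0 at 1.5-fold. For H3K27me3 the count of 0 became 1, Atoh7, at 1.1-fold and after joining peaks. The causes were not tested. Read depth, which is unknown, limits every count of peaks and every covered width.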

Other observations

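The nearest ATAC region called in 1 genotype alone lay outside the windows, 25.2 kb from Neurod2 (chr11:98354611-98355001), inside the gene Ppp1r1b. It was called over 385 bp in cKO replicate 1 and 120 bp in cKO replicate 2 and in neither control list. H3K27ac peaks overlapped it by 76 bp in control and 308 bp in cKO.

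By the Euclidean distance between the percents of the window covered in the 8 lists, in percentage points, the most similar protein-coding gene outside the window was Cd151 for Neurog2 (2.8), Tafa3 for Atoh7 (3.57), Tex44 for Neurod4 (1.58), Insl3 for Neurod2 (5.19), Colgalt2 for Neurod6 (1.03) and B020031M17Rik for Olig1 (1.97).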
